A study of Mus musculus with 9 samples.

Results

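Interferon-stimulated genes (ISGs) were followed in the brown adipose tissue (BAT) of mice held at 4 °C or at 23 °C. A gene was taken as a member when its symbol began with Ifi, Isg, Oas, Irf and a digit, Gbp, Igtp, Irgm, Iigp, Phf11, Slfn or Trim30, when it was Mx1 or Mx2, or when it was Usp18, Rsad2, Zbp1, Rtp4, Cmpk2, Xaf1, Bst2, Stat2, Ddx58, Dhx58 or Parp14. This gave 96 genes of the 16937 genes listed in the series, of which 90 were listed in all 3 tables. The set was proposed because these genes were lower in cold BAT in these same libraries, so for cold against room temperature the calls of a test over all genes are used to describe the members and support nothing, and no p is given for a member. The name rule also took in Irf2bp1, Irf2bp2 and Irf2bpl, which share only the start of their symbol with the interferon regulatory factors.

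RNA from BAT was sequenced from 9 adult mice in 3 groups of 3, named by genotype and temperature. WT RT were wild-type mice held at 23 °C. WT Cold were wild-type mice exposed to 4 °C over 8 h, and GCN2 KO Cold were whole-body Gcn2 knockout mice, which lack the amino acid-sensing kinase GCN2, exposed in the same way. Males and females were used on a C57Bl/6J background, every mouse was housed alone before the experiment, and there was no GCN2 KO group at 23 °C, so the effect of cold within the knockout cannot be separated from the effect of genotype. Within a group, the letters A, B and C stand for its libraries, and values are given in that order as CPM, the reads of a gene relative to all reads on listed genes.

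Interferons are secreted proteins released by cells that detect the nucleic acids of viruses or displaced nucleic acids of the cell itself. Type I interferons bind a receptor made of IFNAR1 and IFNAR2, whose kinases JAK1 and TYK2 activate a complex that holds STAT2 and IRF9. This complex binds the interferon-stimulated response element (ISRE) in the promoters of ISGs, while interferon gamma acts through a different element (GAS) and mainly induces GTPases and antigen presentation genes. Many ISGs are also transcribed at a low tonic level in tissue without infection, most abundantly in resident and recruited leukocytes.

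The libraries held between 27058799 and 30768064 reads on listed genes. Eif2ak4, which encodes GCN2, was 6.46, 8.31 and 8.34 CPM in WT Cold and 11.9, 12.7 and 11.8 CPM in the libraries labelled GCN2 KO Cold, so it was not lower in them, with a log2 fold change of 0.78 (SE 0.15) and an adjusted p of 0.0932 from limma. The counts cover whole genes, and a loss of single exons would not show in them. Of the transcripts that depend on sex, Ddx3y was 144, 87.5 and 7.02 CPM in WT Cold and 86.5, 84.8 and 10.5 CPM in GCN2 KO Cold, so library C of each cold group stood apart, against 93.4, 90.4 and 86.8 CPM in WT RT. Xist was 26.3, 26.2 and 12.5 CPM in WT RT, 37.2, 42.7 and 131 in WT Cold and 43.5, 11.2 and 127 in GCN2 KO Cold, high in the same 2 libraries, and no WT RT library showed this pattern. Without WT Cold library C, 66 members were called lower in WT Cold against WT RT by the thresholds given below. WT RT libraries have codes with their own prefix, so library set and temperature cannot be told apart. Brown adipocyte markers were present in all libraries, with Ucp1 between 3592 and 9693 CPM.

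The promoters of ISGs are shown first because the ISRE is the known binding element of the pathway and the name rule did not use it. RefSeq (GRCm38.p6) gave a promoter for 73 of the 96 members, and the 250 bases before the start were searched on both strands for the ISRE core, written as GAAA, any 2 bases and GAAA. The motif was present for 36 members, or 49.3%, against 936 of the 27025 genes with a promoter, or 3.46%. The members are all listed in the series, whereas the 27025 include genes that are not. With a further C required at the end of the core, 22 members or 30.1% held it, against 0.796% of all genes. The GAS motif TTCNNNGAA was present for 15 of the 73 members, or 20.5%, against 8.13% of all genes. In the promoter of Isg15, 3 overlapping copies of the ISRE core begin 78, 72 and 66 bases before the start. Ifit3 and Ifit3b carry the core on the opposite strand at 2 places, and their printed stretches have 0 mismatches where they align. Igtp and Irgm2, a pair of neighbouring GTPase genes, differ at 2 of the 40 printed bases. Ifi213 and Ifi205 belong to the same family and each hold a single core, yet the first was among the members lowest in the cold and the second was not lower in WT Cold. All stretches lie before the start, are written in the direction of the gene from 5′ to 3′, and carry the ISRE core of either strand in capitals.
Isg15, chr4:156200819-156200968, minus strand: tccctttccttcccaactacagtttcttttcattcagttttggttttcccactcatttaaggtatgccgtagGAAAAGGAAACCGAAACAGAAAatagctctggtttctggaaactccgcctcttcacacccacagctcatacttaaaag
Ifit3, chr19:34583309-34583458, plus strand: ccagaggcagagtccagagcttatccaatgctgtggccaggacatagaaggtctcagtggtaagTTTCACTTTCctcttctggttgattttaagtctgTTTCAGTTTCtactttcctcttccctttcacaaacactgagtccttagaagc
Ifit3b, chr19:34607707-34607854, plus strand: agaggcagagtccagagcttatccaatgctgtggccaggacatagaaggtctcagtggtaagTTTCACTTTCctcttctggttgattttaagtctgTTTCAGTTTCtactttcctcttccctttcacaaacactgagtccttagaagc
Bst2, chr8:71537572-71537617, minus strand: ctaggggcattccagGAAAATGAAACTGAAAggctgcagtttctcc
Oas1a, chr5:120907526-120907560, minus strand: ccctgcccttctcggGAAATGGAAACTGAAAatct
Igtp, chr11:58199507-58199546, plus strand: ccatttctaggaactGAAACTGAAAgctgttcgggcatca
Irgm2, chr11:58214898-58214937, plus strand: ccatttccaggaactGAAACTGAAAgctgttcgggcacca
Gbp3, chr3:142559984-142560029, plus strand: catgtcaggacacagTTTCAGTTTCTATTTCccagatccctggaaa
Ifi213, chr1:173599321-173599360, minus strand: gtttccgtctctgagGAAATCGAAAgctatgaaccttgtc
Ifi205, chr1:174031865-174031904, minus strand: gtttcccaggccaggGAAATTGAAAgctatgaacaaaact

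By family, the core was found in all 5 Gbp genes with a promoter, in 5 of 6 Ifit genes, in 6 of 8 Ifi200 genes, in 4 of 6 Oas genes and in 3 of 4 immunity-related GTPases, but in 2 of 9 promoters of the Irf factors with Stat2 and in 1 of 5 Ifitm genes. Among the 49 members with a promoter that were lower in WT Cold by the thresholds used below, 27 held the core, and among the other 24 members with a promoter 9 did. The GAS motif was held by 9 of the 49 and 6 of the 24. These calls come from the contrast that chose the members. The 24 also include the 3 Irf2bp genes, of which 0 held the core, so nothing is read from this split. Copies within a family share sequence and are not independent. A match is a description of these letters and does not show that a factor binds there.

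In WT Cold, most ISGs stood far below their level in WT RT. A gene was called when limma on log2(normalized count + 1) gave an adjusted p (Benjamini-Hochberg) under 0.05 and a difference of more than 1 on the log2 scale. Of the 95 members listed in this table, 66 were called lower, where 5.15% of all 16679 genes were called lower, and 1 was called higher, where 2.99% of all genes were (8.14% in either direction). DESeq2 and edgeR on recovered reads each called 67 members lower, where they called 5.28 and 5.26% of all genes lower. This contrast chose the members, so nothing is read from these counts or from the counts by family below. The median log2 fold change was -1.70 over the members and 0.00 over all genes, and the members called lower had a median of 21.1% of their WT RT level left, from 1.70 to 47.5%. The lowest was Phf11a, with 6 reads over WT Cold and 376 over WT RT. No gene with under 61 reads over the 6 libraries was listed. Phf11a and other members with few reads in WT Cold were thus listed through their WT RT reads, which shapes the low end of this range. In the normalized counts of 72 of the 95 members all WT Cold libraries were below all WT RT libraries, a pattern that 22.8% of all genes showed. BAT is a mixture of cells, and fewer cells of a type cannot be told apart from less RNA per cell.

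**Figure D1:**
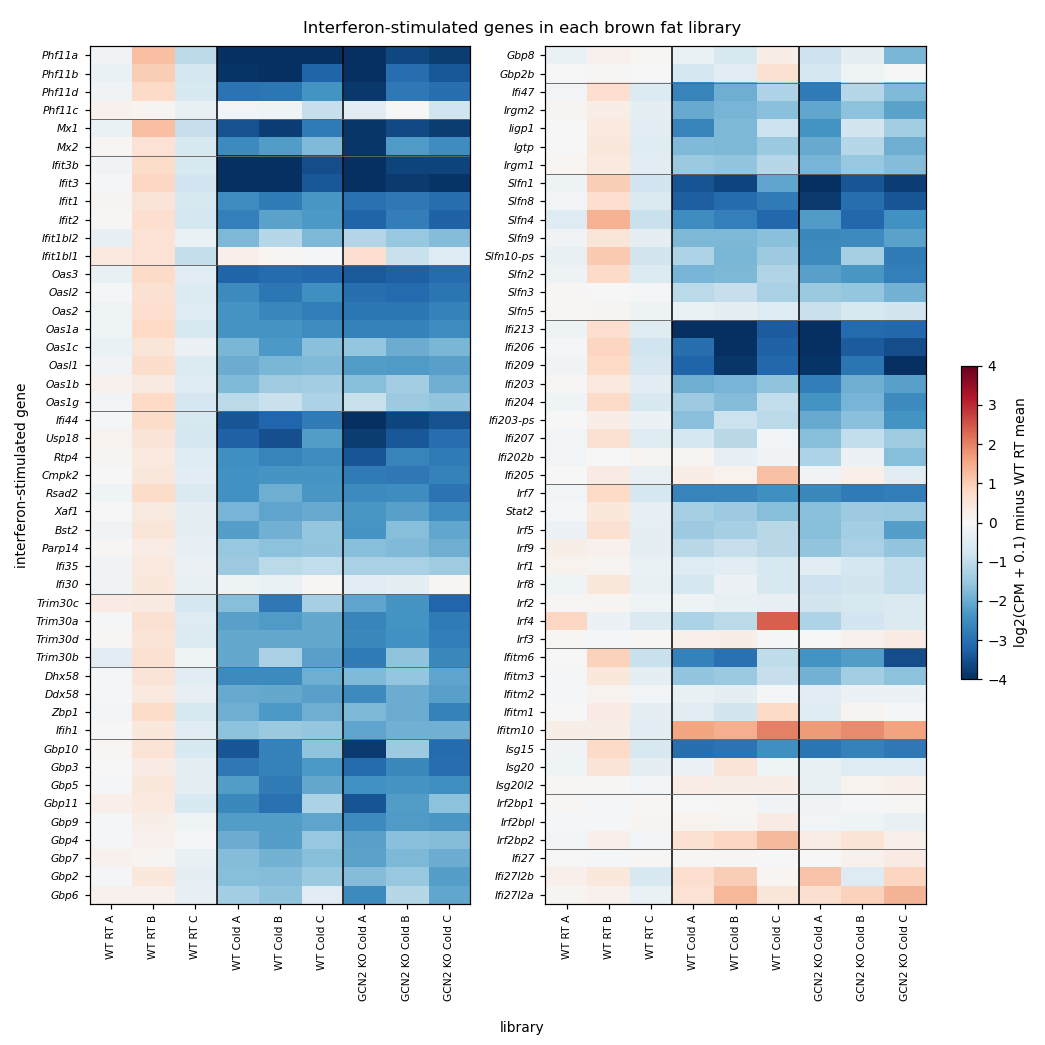
Heat map of 94 of the 95 members with a value in all 9 libraries, as log2(CPM + 0.1) minus the mean of the WT RT libraries, with a row per gene grouped by family and a column per library. Blue is below and red above the WT RT mean, the colour scale stops at 4 in each direction, and most rows are blue in all 6 cold libraries while rows such as Ifi27l2a, Irf2bp2 and Ifitm10 are red.

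The libraries within WT RT were not alike. Relative to the WT RT mean, the median member stood at -0.05, 0.46 and -0.44 on the log2 scale in WT RT, at -1.83, -1.82 and -1.55 in WT Cold, and at -2.16, -1.69 and -2.14 in GCN2 KO Cold. WT RT library B was the highest of its group in 81 of 95 members, or 85.3%, against 41.3% of all genes. The 3 groups of medians did not overlap between room temperature and cold, and the lowest WT RT library stayed above every cold library. Without WT RT library B, 57 members were called lower and the median log2 fold change was -1.52.

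**Figure D2:**
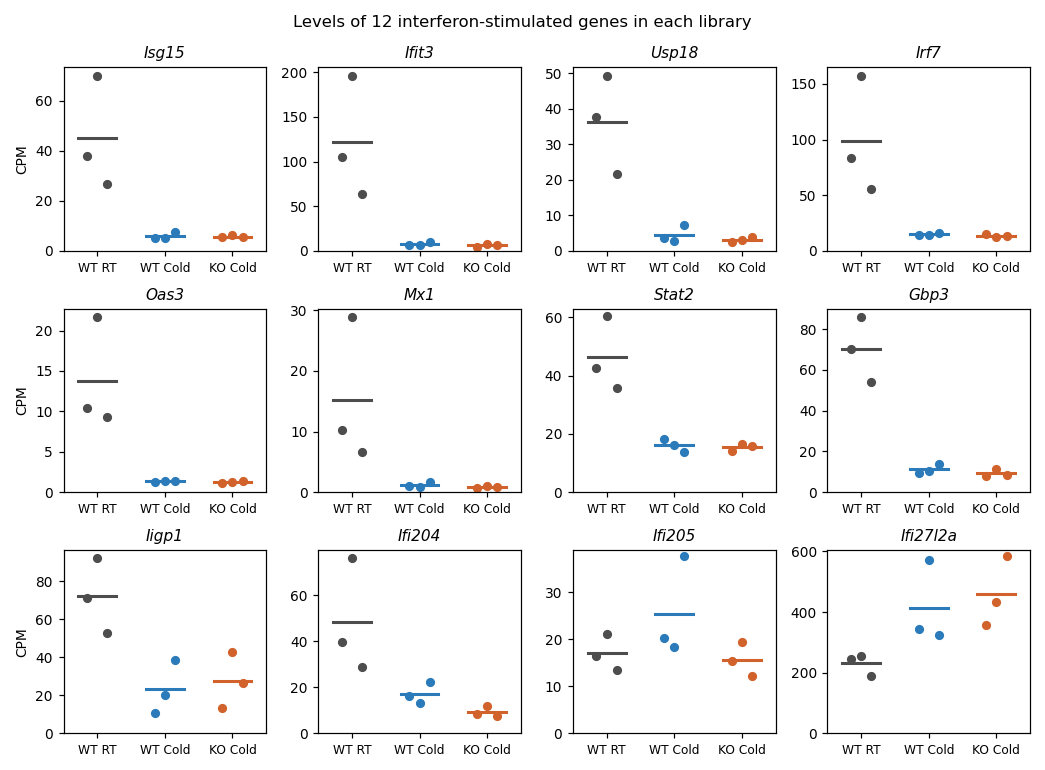
CPM of 12 ISGs in each library, with 3 points per group for libraries A, B and C from left to right and a bar at the group mean, each panel on its own linear axis from 0. Library B is the highest WT RT point in every panel, and for Ifi205 and Ifi27l2a the WT Cold mean lies above the WT RT mean.

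The transcription factors that carry the interferon signal were lower in part. Irf7, the factor that amplifies type I interferon production, was 83.8, 158 and 55.9 CPM in WT RT, 14.1, 14.5 and 16.4 in WT Cold and 15.2, 12.6 and 13.1 in GCN2 KO Cold. Stat2, the subunit of the ISRE-binding complex particular to type I and III interferons, was 42.6, 60.6 and 35.6 CPM in WT RT, 18.1, 16.4 and 13.8 in WT Cold and 14.03, 16.4 and 15.96 in GCN2 KO Cold. Irf9, the DNA-binding subunit of that complex, was 44.8, 43.4 and 29.2 CPM in WT RT, 17.8, 20.1 and 17.7 in WT Cold and 12.9, 15.6 and 12.7 in GCN2 KO Cold. In all 3 genes no cold library reached any WT RT library. They had log2 fold changes in WT Cold of -2.51 (SE 0.31), -1.41 (SE 0.18) and -0.97 (SE 0.15), of which that of Irf9 lay just short of the fold threshold. Irf5, a factor of myeloid and B cells, was 9.78, 17.5 and 8.93 CPM in WT RT, 4.11, 4.52 and 5.31 in WT Cold and 3.44, 4.45 and 2.44 in GCN2 KO Cold, a log2 fold change of -1.23 (SE 0.25).

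Other interferon regulatory factors were not called in WT Cold. Irf1, a target of interferon gamma, had a log2 fold change of -0.45 (SE 0.11), and Irf2, Irf8 and Irf3 had -0.19, -0.45 and 0.22. Irf3, which is activated by phosphorylation rather than by induction, stood between 35.3 and 46.6 CPM in all 9 libraries. Irf4, a factor of lymphocytes and macrophages that is also known in adipocytes, was 40.8, 19.4 and 15.3 CPM in WT RT, 9.5, 10.8 and 121 in WT Cold and 9.76, 13.6 and 15.4 in GCN2 KO Cold. A single library, WT Cold library C, was far above all others, and without it the log2 fold change of Irf4 moved from 0.10 to -1.11.

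The cytosolic sensors of viral nucleic acids were lower in every cold library than in any WT RT library. Ddx58, which encodes the RNA sensor RIG-I, was 48, 64.4 and 39.2 CPM in WT RT, 12.2, 11.99 and 10.97 in WT Cold and 8.43, 12.5 and 11.01 in GCN2 KO Cold. Dhx58, which encodes its relative LGP2, was 21.9, 33.4 and 17.04 CPM in WT RT, 3.904, 3.93 and 5.904 in WT Cold and 6.69, 7.79 and 5.28 in GCN2 KO Cold. Zbp1, a sensor of left-handed nucleic acids that can trigger cell death, was 28.01, 50.6 and 19.3 CPM in WT RT, 7.704, 6.08 and 7.71 in WT Cold and 8.68, 7.54 and 4.58 in GCN2 KO Cold. The log2 fold changes in WT Cold were -1.99 (SE 0.15), -2.28 (SE 0.26) and -1.99 (SE 0.30), and Ifih1, which encodes the RNA sensor MDA5, had -1.48 (SE 0.18). All 4 sensors were called lower, where 5.15% of all genes were.

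The Oas genes encode synthetases that respond to double-stranded RNA and switch on the nuclease RNase L. Of these 8 genes 7 were called lower, where 5.15% of all genes were. Oas3 was 10.4, 21.7 and 9.32 CPM in WT RT, 1.31, 1.42 and 1.35 in WT Cold and 1.16, 1.25 and 1.44 in GCN2 KO Cold. Oas2 was 12.7, 23.04 and 9.95 CPM in WT RT, 2.73, 2.26 and 2.01 in WT Cold and 1.84, 1.84 and 2.11 in GCN2 KO Cold. Oasl2, an Oas-like relative, was 53.2, 84.5 and 37.4 CPM in WT RT, 9.29, 7.298 and 10.1 in WT Cold and 6.69, 6.33 and 7.13 in GCN2 KO Cold. Their cold libraries lay close together, from 1.16 to 1.44 CPM for Oas3, and log2 fold changes in WT Cold were -3.12 (SE 0.30), -2.52 (SE 0.28) and -2.56 (SE 0.26). The remaining member, Oas1g, missed the adjusted p threshold, with a log2 fold change of -1.01 (SE 0.34) and with all WT Cold libraries below all WT RT libraries.

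The Ifit genes, whose products bind foreign RNA ends, held some of the largest differences. Ifit3 was 105, 196 and 64.1 CPM in WT RT, 6.43, 6.92 and 10.4 in WT Cold and 4.701, 7.58 and 7.096 in GCN2 KO Cold. Ifit3b was 32.8, 60.5 and 23.8 CPM in WT RT, 1.87, 1.63 and 2.99 in WT Cold and 1.16, 2.68 and 2.66 in GCN2 KO Cold. Ifit1 was 41.99, 55.4 and 24.6 CPM in WT RT, 6.67, 5.42 and 7.64 in WT Cold and 4.77, 5.25 and 4.73 in GCN2 KO Cold. The means of Ifit3 and Ifit3b in WT Cold were 6.51 and 5.54% of those in WT RT, with log2 fold changes of -3.74 (SE 0.36) and -4.01 (SE 0.35), and Ifit1 had -2.48 (SE 0.26). Ifit1bl1 was the exception in the family, at 12.1, 13.7 and 4.69 CPM in WT RT, 10.6, 9.66 and 8.72 in WT Cold and 14.7, 4.97 and 6.39 in GCN2 KO Cold, with overlapping groups.

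Further antiviral effectors followed. Mx1, a dynamin-like GTPase that blocks influenza viruses, was 10.3, 28.9 and 6.63 CPM in WT RT, 1.04, 0.834 and 1.74 in WT Cold and 0.759, 0.939 and 0.813 in GCN2 KO Cold. Mx2 was 7.16, 10.2 and 4.3 CPM in WT RT, 1.07, 1.36 and 1.91 in WT Cold and 0.362, 1.32 and 1.15 in GCN2 KO Cold. Rsad2, which encodes viperin, was 50.5, 94.7 and 37.8 CPM in WT RT, 10.5, 14.5 and 11.1 in WT Cold and 9.62, 10.1 and 7.28 in GCN2 KO Cold. The WT RT libraries of Mx1 differed by more than those of the other genes here, and even so the lowest of them stood above every cold library. Cmpk2, a nucleotide kinase that lies beside Rsad2, was 40.02, 55.4 and 29.5 CPM in WT RT, 7.46, 7.85 and 7.85 in WT Cold and 5.64, 5.53 and 6.098 in GCN2 KO Cold. Bst2, which encodes tetherin, a protein that holds budding virus at the cell surface, was 86.6, 134 and 74.7 CPM in WT RT, 20.4, 25.1 and 32.4 in WT Cold and 18.6, 29.4 and 22.4 in GCN2 KO Cold. Log2 fold changes in WT Cold were -3.33 (SE 0.51), -2.16 (SE 0.34), -2.16 (SE 0.29), -2.29 (SE 0.19) and -1.81 (SE 0.23) in this order. Ifi44 was 23.2, 40.6 and 15.5 CPM in WT RT, 2.18, 2.64 and 3.404 in WT Cold and 1.34, 1.84 and 2.11 in GCN2 KO Cold, a log2 fold change of -3.08 (SE 0.32).

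Isg15 and the genes around it encode a modifier that is attached to other proteins like ubiquitin. Isg15, the modifier, was 38.02, 70.04 and 26.9 CPM in WT RT, 5.08, 5.25 and 7.54 in WT Cold and 5.39, 6.29 and 5.58 in GCN2 KO Cold. Usp18, the protease that removes it and also blocks the receptor IFNAR2, was 37.8, 49.3 and 21.7 CPM in WT RT, 3.52, 2.92 and 7.29 in WT Cold and 2.39, 3.16 and 4.03 in GCN2 KO Cold. Their log2 fold changes in WT Cold were -2.73 (SE 0.32) and -2.93 (SE 0.39). The enzymes that attach ISG15, which lie outside the rule, were also called lower: Uba7 at -1.17, Ube2l6 at -1.08 and Herc6 at -1.91 on the same scale. The other Isg symbols did not follow, since neither was called. Isg20, an exonuclease gene, was 12.8, 20.9 and 11.2 CPM in WT RT, 12.3, 20.9 and 12.9 in WT Cold and 11.7, 10.05 and 10.1 in GCN2 KO Cold (0.13, SE 0.27), and Isg20l2, a nuclease gene of ribosome biogenesis, was 10.8, 10.6 and 9.35 CPM in WT RT, 12.7, 11.9 and 12.3 in WT Cold and 8.35, 11.2 and 11.8 in GCN2 KO Cold (0.35, SE 0.11).

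Rtp4, Xaf1 and Parp14 complete the genes named one by one in the rule. Rtp4, a chaperone of receptors and negative regulator of interferon responses, was 60.7, 73.03 and 39.4 CPM in WT RT, 10.02, 8.76 and 9.62 in WT Cold and 5.14, 8.62 and 7.76 in GCN2 KO Cold. Xaf1, a gene linked to cell death, was 27.2, 34.7 and 20.6 CPM in WT RT, 7.39, 6.19 and 6.56 in WT Cold and 5.24, 5.94 and 4.73 in GCN2 KO Cold. Parp14, an ADP-ribosyltransferase gene, was 62.5, 73.7 and 48.1 CPM in WT RT, 21.1, 19.4 and 20.3 in WT Cold and 18.4, 17.7 and 15.7 in GCN2 KO Cold. No cold library reached a WT RT library in any of them, and log2 fold changes in WT Cold were -2.48 (SE 0.19), -1.92 (SE 0.17) and -1.49 (SE 0.13).

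The guanylate-binding proteins and immunity-related GTPases, which act on the vacuoles of intracellular pathogens and respond strongly to interferon gamma, were also lower. Of the 11 Gbp genes 9 were called lower, and all 5 immunity-related GTPases were, where 5.15% of all genes were called lower. Gbp3 was 70.1, 86.2 and 53.9 CPM in WT RT, 9.33, 10.5 and 14.03 in WT Cold and 7.99, 11.5 and 8.28 in GCN2 KO Cold. Gbp10 was 12.7, 17.8 and 7.81 CPM in WT RT, 1.04, 1.77 and 3.86 in WT Cold and 0.759, 4.31 and 1.33 in GCN2 KO Cold. Gbp5 was 14.2, 19.7 and 11.4 CPM in WT RT, 3.04, 2.05 and 3.47 in WT Cold and 2.64, 2.82 and 2.59 in GCN2 KO Cold. No cold library of these 3 genes reached a WT RT library, and the highest WT Cold library of Gbp10 was 3.72 times its lowest. Iigp1 was 70.98, 92.2 and 52.5 CPM in WT RT, 10.9, 20.1 and 38.5 in WT Cold and 13.2, 42.5 and 26.5 in GCN2 KO Cold. Ifi47 was 19.8, 33.8 and 14.6 CPM in WT RT, 3.25, 5.46 and 8.96 in WT Cold and 3.002, 9.63 and 6.17 in GCN2 KO Cold. Irgm2 was 53.9, 59.997 and 39.1 CPM in WT RT, 12.4, 13.7 and 15.7 in WT Cold and 11.9, 16.1 and 11.2 in GCN2 KO Cold. For Iigp1, Ifi47 and Gbp10, WT Cold library C and GCN2 KO Cold library B were the highest of their groups. Iigp1 was no longer called without WT RT library A or B, without WT Cold library B or with no mean-variance trend. Log2 fold changes in WT Cold were -2.54 (SE 0.20), -2.54 (SE 0.48), -2.30 (SE 0.25), -1.70 (SE 0.42), -1.89 (SE 0.41) and -1.77 (SE 0.16). Gbp2b and Gbp8, both with few reads, were 0.394, 0.423 and 0.394 and 0.525, 0.748 and 0.689 CPM in WT RT and overlapped with WT Cold.

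The Ifi200 genes, which encode proteins with pyrin and DNA-binding domains in a single cluster, ranged from members with little of their WT RT level left to members that were not lower. Ifi213 was 7.09, 13.3 and 5.91 CPM in WT RT, 0.415, 0.382 and 0.729 in WT Cold and 0.217, 0.869 and 0.85 in GCN2 KO Cold. Ifi206 was 5.55, 10.6 and 3.25 CPM in WT RT, 0.622, 0.174 and 0.521 in WT Cold and 0.0362, 0.487 and 0.407 in GCN2 KO Cold. Ifi209 was 16.8, 32.1 and 11.6 CPM in WT RT, 1.9, 1.15 and 2.01 in WT Cold and 1.12, 2.33 and 1.07 in GCN2 KO Cold. These 3 genes kept 5.81, 6.8 and 8.36% of the WT RT mean in WT Cold, with log2 fold changes of -3.90 (SE 0.37), -3.70 (SE 0.54) and -3.38 (SE 0.36). Ifi204 was 39.6, 76.2 and 28.8 CPM in WT RT, 16.2, 13.2 and 22.3 in WT Cold and 8.28, 12.03 and 7.502 in GCN2 KO Cold, and Ifi205 was 16.5, 21.2 and 13.5 CPM in WT RT, 20.3, 18.4 and 37.7 in WT Cold and 15.4, 19.5 and 12.2 in GCN2 KO Cold. Ifi204 was called lower (-1.31, SE 0.33), but not with no mean-variance trend or without WT RT library A or B or WT Cold library A or B. Ifi205 had a log2 fold change of 0.61 (SE 0.28), Ifi207 of -0.55 (SE 0.31) and Ifi202b of -0.05 (SE 0.24), and none of these was called. The genes of this cluster are close copies, and reads that match more than 1 of them were not counted.

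Of the Slfn, Phf11 and Trim30 genes, 6 of 8, 3 of 4 and 4 of 4 were called lower, where 5.15% of all genes were. Many Slfn genes are tied to lymphocyte and myeloid growth control. Slfn4, a gene of monocytes and macrophages, was 31.8, 120.3 and 24.8 CPM in WT RT, 8.15, 6.74 and 5.04 in WT Cold and 9.51, 5.14 and 8.35 in GCN2 KO Cold. Slfn1 was 10.2, 23.6 and 6.93 CPM in WT RT, 1.002, 0.834 and 2.67 in WT Cold and 0.253, 1.01 and 0.776 in GCN2 KO Cold. Slfn8 was 16.9, 29.3 and 12.1 CPM in WT RT, 1.76, 2.09 and 2.47 in WT Cold and 1.19, 2.16 and 1.59 in GCN2 KO Cold. Slfn4 was highest in WT RT library B by a wide margin, and all 3 were lower in every cold library, with log2 fold changes of -2.72 (SE 0.51), -3.06 (SE 0.54) and -3.02 (SE 0.30). Slfn5 was 167, 171 and 137 CPM in WT RT, 132, 121 and 109 in WT Cold and 84.98, 101 and 94.9 in GCN2 KO Cold, a log2 fold change of -0.30 (SE 0.09) that missed the fold threshold. Phf11b was 11.1, 26.8 and 8.17 CPM in WT RT, 0.795, 0.765 and 1.35 in WT Cold and 0.217, 1.53 and 1.18 in GCN2 KO Cold. Phf11d was 26.8, 50.3 and 19.6 CPM in WT RT, 3.77, 3.96 and 5.59 in WT Cold and 1.95, 3.998 and 3.58 in GCN2 KO Cold. Phf11a was 2.99, 7.74 and 1.54 CPM in WT RT, 0.0345, 0.104 and 0.0695 in WT Cold and 0.0723, 0.174 and 0.148 in GCN2 KO Cold, a log2 fold change of -4.999 in WT Cold that depends on the pseudocount. It had 6 reads over the WT Cold libraries against 376 over WT RT, or 1.69% of its WT RT level with an exact 95% interval of 0.617 to 3.72% that covers counting error only. The log2 fold changes of Phf11b and Phf11d were -3.71 (SE 0.43) and -2.68 (SE 0.32), and that of Phf11c was -0.34 (SE 0.28), not called. Trim30a, a regulator of inflammasome and Toll-like receptor signalling, was 31.9, 52.1 and 23.6 CPM in WT RT, 7.53, 6.95 and 8.06 in WT Cold and 5.35, 6.47 and 4.73 in GCN2 KO Cold, and Trim30d was 15.2, 21.4 and 10.01 CPM in WT RT, 3.52, 3.54 and 3.51 in WT Cold and 2.42, 2.71 and 2.11 in GCN2 KO Cold, with log2 fold changes of -2.09 (SE 0.24) and -1.98 (SE 0.24).

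**Figure D3:**
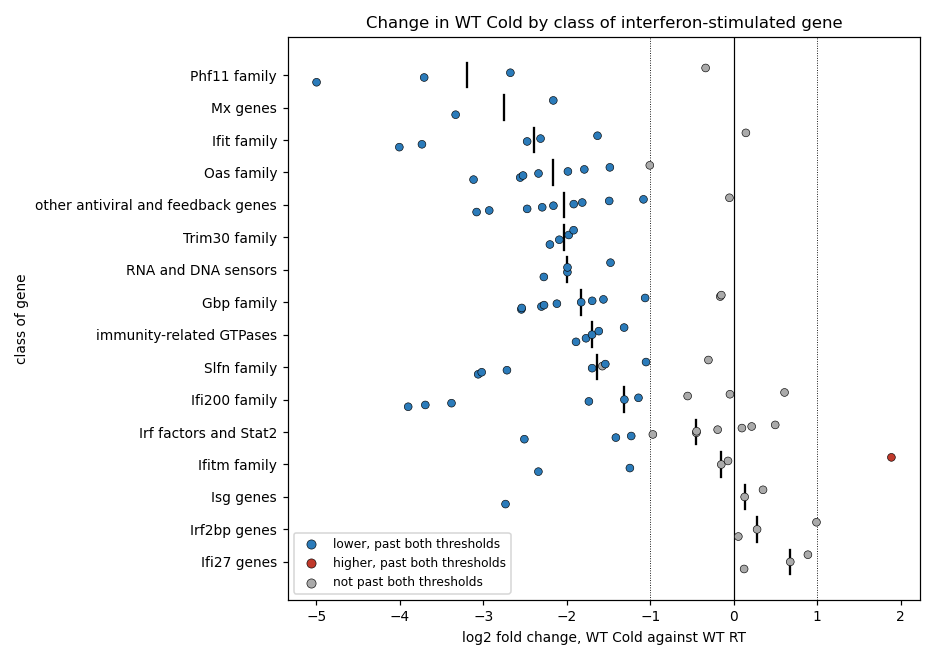
Log2 fold change of each member in WT Cold against WT RT, with a point per gene, families on the vertical axis in order of their median (black bar) and dotted lines at a log2 fold change of 1 in each direction. Blue points are called lower, the red point is Ifitm10, grey points are not called, and family medians run from -3.19 for Phf11 to 0.68 for the Ifi27 genes.

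A smaller set was not lower in the cold. Ifi27l2a, which encodes a mitochondrial or nuclear membrane protein, was 244, 257 and 191 CPM in WT RT, 345, 573 and 323 in WT Cold and 357, 433 and 585 in GCN2 KO Cold. Ifi27 stood at 1149.6, 1119 and 1182 CPM in WT RT and 1209, 1184 and 1155 in WT Cold. Every cold library of Ifi27l2a was above every WT RT library, with a log2 fold change of 0.89 (SE 0.21) in WT Cold, short of the fold threshold. Among the Ifitm genes, whose products restrict virus entry, Ifitm3 was 169.97, 235 and 132 CPM in WT RT, 58.4, 61.9 and 92.1 in WT Cold and 47.1, 65.9 and 55.7 in GCN2 KO Cold, and Ifitm2 was 65.7, 75.01 and 62.95 CPM in WT RT, 55, 52.9 and 65.6 in WT Cold and 48.97, 57.7 and 58.1 in GCN2 KO Cold. Ifitm3 was called lower with a log2 fold change of -1.24 (SE 0.23), while the WT Cold libraries of Ifitm2 reached into its WT RT range (-0.15, SE 0.11). Ifitm10, which shares the family name but is not known as an antiviral gene, was called higher from 0.591, 0.585 and 0.328 CPM in WT RT to 1.66, 1.49 and 2.29 in WT Cold (1.89, SE 0.33). Irf2bp2, a corepressor gene, was 23.2, 28.99 and 23.1 CPM in WT RT, 37.97, 44.5 and 60.8 in WT Cold and 30.8, 36.5 and 28.97 in GCN2 KO Cold, a log2 fold change of 0.99 (SE 0.19) just short of the fold threshold. Ifi30, a lysosomal thiol reductase gene of antigen-presenting cells, was 22.5, 32.8 and 19.99 CPM in WT RT, 21.4, 20.3 and 25.6 in WT Cold and 17.97, 18.7 and 26.1 in GCN2 KO Cold, with no separation of the groups.

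Levels were compared between genes per kilobase of exon (RPKM). In WT RT, the members with the highest mean level were Ifi27 with 784, Ifi27l2a with 498, Ifitm3 with 264, Bst2 with 109 and Ifitm2 with 104 RPKM. In WT Cold the order changed to Ifi27l2a with 894, Ifi27 with 806, Ifitm3 with 104, Ifitm2 with 88.3 and Bst2 with 28.8 RPKM, and of these 5 Ifitm3 and Bst2 were called lower. Ifit3 and Isg15 went from 69.8 and 59.5 RPKM in WT RT to 4.54 and 7.88 in WT Cold.

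The pathway above the ISGs was read from lists of further genes. Of 14 interferon genes on the list of ligands, 0 were listed in any table. No gene with under 61 reads over the 6 libraries of a table was listed, so low levels of ligand RNA could not be seen. The 9 receptor and kinase genes were all listed, and 0 passed both thresholds in WT Cold against WT RT, with a median log2 fold change of -0.25. At an adjusted p under 0.05 alone 6 of them passed with limma, of which Ifngr1 was higher and the others lower. Ifnar1 and Ifnar2 were 42.5, 39.6 and 38.01 and 122, 123 and 112 CPM in WT RT, with log2 fold changes of -0.24 (SE 0.08) and -0.45 (SE 0.10). The kinase gene Tyk2 was nearest to the threshold at -0.95 (SE 0.14), followed by the receptor gene Il10rb at -0.91 (SE 0.10). Ifngr1, a chain of the interferon gamma receptor, was 0.43 (SE 0.10).

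Among 18 genes of nucleic acid sensing outside the rule, 5 were lower and 0 higher by both thresholds, with a median of -0.09. These 5 were the endosomal receptor genes Tlr9 (-3.65), Tlr7 (-1.20) and Tlr8 (-1.16), their trafficking partner Unc93b1 (-1.19) and the RNA-dependent kinase gene Eif2ak2 (-1.60). Tlr9 was 4.37, 7.09 and 3.32 CPM in WT RT, 0.311, 0.278 and 0.382 in WT Cold and 0.0723, 0.765 and 0.333 in GCN2 KO Cold. Mavs, the adaptor of RIG-I and MDA5, was on the other side at 0.76 (SE 0.16) and was not called. Of 14 listed negative regulators, 2 were lower, namely the phosphatase gene Ptpn6 (-1.40) and the nucleotide hydrolase gene Samhd1 (-1.24).

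A list of 58 ISGs that the name rule does not reach was read in the same way. Of its 56 listed genes, 33 were lower and 0 higher by both thresholds, where 5.15% of all genes were called lower, and the median log2 fold change was -1.15. The list was written with earlier results of these data known and is not independent evidence of direction. Cxcl10, a chemokine gene, was 9.46, 27.5 and 6.56 CPM in WT RT, 1.28, 0.904 and 2.54 in WT Cold and 0.759, 1.56 and 1.26 in GCN2 KO Cold, and Lgals3bp, a secreted glycoprotein gene, was 182, 229 and 154 CPM in WT RT, 39.5, 37.6 and 55.7 in WT Cold and 35.4, 47.7 and 35.5 in GCN2 KO Cold. Both separated fully between WT RT and cold, with log2 fold changes of -2.95 (SE 0.55) and -2.01 (SE 0.18). Helz2, Gch1 and Tor1aip1 on the same list had -0.06, 0.03 and 0.02. Of 13 genes known to respond to interferon gamma, mostly of antigen presentation and the immunoproteasome but with the chemokine gene Cxcl9 and the checkpoint ligand gene Cd274, all of them also on that list, 6 were lower with a median of -0.997. Of 12 listed NF-kB targets, 1 was lower, the chemokine gene Ccl2 (-2.07), and Nfkbia was 0.66 (SE 0.14).

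Some leukocyte marker lists were lower in the cold, and others were not. Of 6 pan leukocyte markers, 4 were lower in WT Cold by both thresholds, with a median log2 fold change of -1.12, and their summed level was 91.4 to 187.1 CPM in WT RT, 39.96 to 55.9 in WT Cold and 24.6 to 46.6 in GCN2 KO Cold. Of 6 classical monocyte markers 4 were lower (median -2.08), with summed levels of 112 to 281, 91.7 to 96.9 and 55.95 to 90.1 CPM in the same order. Ptprc, which encodes CD45, was 24.7, 42.8 and 17.5 CPM in WT RT, 6.91, 5.77 and 8.61 in WT Cold and 5.71, 8.73 and 4.95 in GCN2 KO Cold. Ly6c2, a marker of classical monocytes, was 13.9, 54.2 and 11.8 CPM in WT RT, 0.691, 0.521 and 1.49 in WT Cold and 0.651, 1.39 and 1.66 in GCN2 KO Cold. WT RT library B was the highest in both, as it was in most ISGs. Of 10 macrophage markers 3 were lower (median -0.80), with summed levels of 456.8 to 720.9, 242.3 to 355.6 and 184.3 to 263.7 CPM. Fcgr1, which is on that list and is itself induced by interferon, was 27.5, 79.9 and 24.6 CPM in WT RT, 1.52, 1.67 and 4.34 in WT Cold and 1.01, 2.99 and 2.99 in GCN2 KO Cold, whereas the complement genes C1qa, C1qb and C1qc of resident macrophages had log2 fold changes of -0.57, -0.65 and -0.66.

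Markers of other cells were read in the same libraries. Of the 11 T and NK cell markers 8 were listed, with summed levels of 8.01 to 13.4 CPM in WT RT, 4.41 to 4.87 in WT Cold and 5.32 to 7.404 in GCN2 KO Cold. In WT Cold against WT RT 7 were listed, all 7 were below 0 with a median of -1.02, and 1 was called lower. Cd8b1, Klrb1c and Ncr1 were not listed, and Gzma was at 0 reads in a library. Plasmacytoid dendritic cells are strong producers of interferon. Of their 5 listed markers 0 were called lower, while Siglech was not listed. In WT Cold these 5 summed to at least 97.7 CPM, above the 39.96 to 55.9 CPM of the pan leukocyte markers. Whether their RNA came from plasmacytoid dendritic cells was not tested, so nothing is read from them about these cells. The median log2 fold change was 0.33 for plasmacytoid dendritic cell, 0.35 for neutrophil and 0.09 for B cell markers, against -0.46 for conventional dendritic cell and -0.83 for patrolling monocyte markers. Of 6 patrolling monocyte, 6 neutrophil and 7 B cell markers 1 each was lower, and of 6 conventional dendritic cell, 6 fibroblast and 8 skeletal muscle markers 0 were. Of 9 brown adipocyte markers 0 were lower and 1 was higher, Ucp1 (1.02, SE 0.16). Endothelial markers had a median log2 fold change of 0.30 and red blood cell genes of 1.64. The part that leukocyte content has in the lower ISG levels was not tested.

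**Figure D4:**
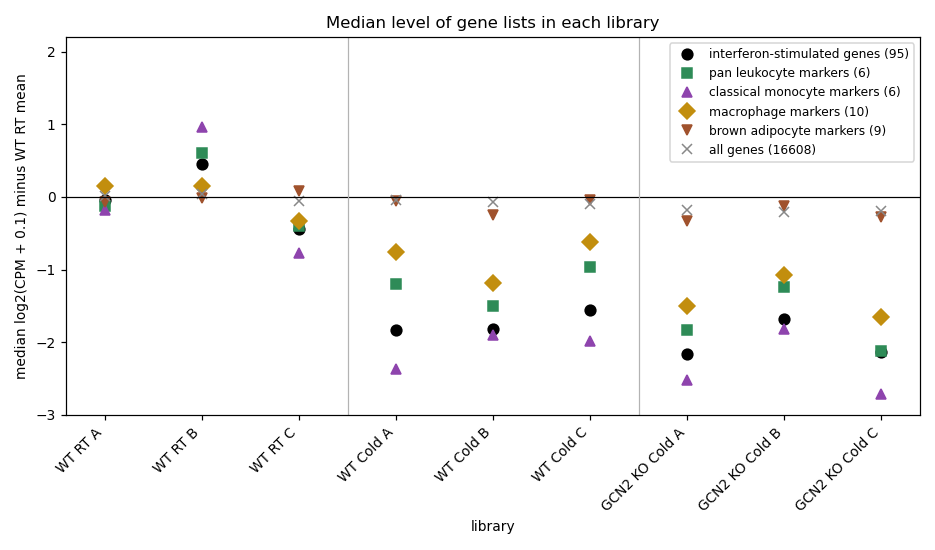
Median of log2(CPM + 0.1) minus the WT RT mean over the genes of each list, for each of the 9 libraries, with the number of genes in parentheses. ISGs (black circles), pan leukocyte, macrophage and classical monocyte markers lie lower in all 6 cold libraries than in WT RT and are highest or near highest in WT RT library B, while brown adipocyte markers reach no lower than -0.34 and all genes no lower than -0.20.

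Genotype was compared in the cold, where the libraries labelled GCN2 KO Cold were set against WT Cold. This comparison shares the WT Cold libraries with the contrast on which the members were proposed. Of 90 members listed, 0 passed both thresholds with limma, where 0.257% of 16312 genes did. DESeq2 and edgeR on the recovered reads also called 0 members, where they called 1.28 and 0.202% of all genes. At an unadjusted p under 0.05, limma gave 14 members or 15.6%, against 15.3% of all genes, DESeq2 gave 12 or 13.3%, against 13.1%, and edgeR 13 or 14.4%, against 15.3%. The smallest adjusted p among members was 0.206 with limma. In the GCN2 KO Cold libraries the members leaned to lower values, since 63 of 90 log2 fold changes were below 0, against 50.5% of all genes. Not all families did, since 4 of 5 immunity-related GTPases and all 3 Ifi27 genes were above 0. The median of the members was -0.17, against 0.00 for all genes. It was -0.29 under CPM scaling, from -0.25 to -0.08 with 1 library left out and -0.05 without library C of both cold groups. The 56 listed ISGs outside the rule had a median of -0.07. Of the 13 genes known to respond to interferon gamma 4 were below 0, with a median of 0.115. Among the marker lists, the 6 pan leukocyte markers had a median log2 fold change of -0.29, the 10 macrophage markers of -0.42 and the 6 fibroblast markers of -0.36, with 0 called. Medians above 0 were those of red blood cell (0.64), T and NK cell (0.53, 3 listed), brown adipocyte (0.11) and B cell markers (0.06), also with 0 called. The skeletal muscle markers summed to 1824 to 3032 CPM in WT Cold and 234 to 1071 CPM in GCN2 KO Cold. The part of these in the genotype values was not tested.

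Ifi204 had the smallest adjusted p. It was 16.2, 13.2 and 22.3 CPM in WT Cold and 8.28, 12.03 and 7.502 CPM in GCN2 KO Cold, a log2 fold change of -0.77 (SE 0.25) with a 95% interval of -1.34 to -0.20, an adjusted p of 0.206 from limma and of 0.0625 from DESeq2. Slfn2 was 6.05, 6.39 and 9.66 CPM in WT Cold and 4.85, 4.31 and 3.29 in GCN2 KO Cold, a log2 fold change of -0.69 (SE 0.24) and an adjusted p of 0.241 from limma. In both genes the groups did not overlap. In normalized counts this held for 12 members in the lower direction, or 13.3%, against 10.7% of all genes, and for 1 member in the higher direction, Ifi27, against 11.3% of all genes. CPM are not used for these counts because the median gene stood lower on that scale in the libraries labelled GCN2 KO Cold, at -0.19, -0.20 and -0.19 against -0.05, -0.07 and -0.10 in WT Cold. Dhx58 had the highest log2 fold change, 0.65 (SE 0.23), with an interval of 0.10 to 1.19 and an adjusted p of 0.251 from limma, and its groups overlapped.

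For 57 of the 90 members, the 95% interval of the difference between GCN2 KO Cold and WT Cold stayed within 2-fold in both directions, and for 33 it reached further. Isg15 had an interval of -0.38 to 0.55, Irf7 of -0.31 to 0.27, Stat2 of -0.23 to 0.36 and Oas1a of -0.49 to 0.25 on the log2 scale. Among the wider intervals were those of Ifi206 (-2.62 to 1.35), Gbp10 (-1.74 to 1.51), Irf4 (-2.85 to 1.35) and Iigp1 (-0.88 to 1.66). Of the 72 members whose normalized counts averaged 50 or more, 54 had an interval within 2-fold.

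**Figure D5:**
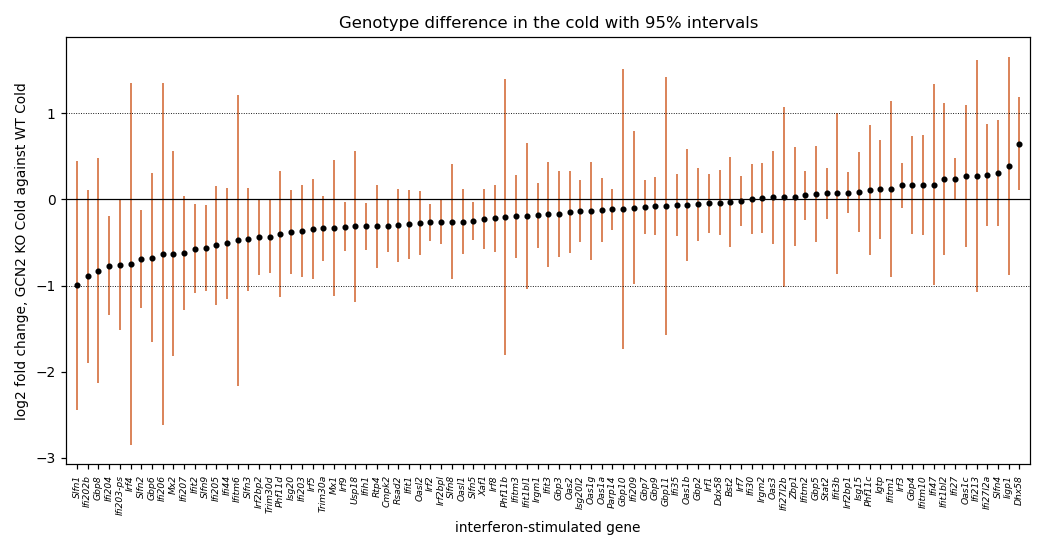
Log2 fold change of 89 of the 90 members listed in GCN2 KO Cold against WT Cold, in order of size, with a black point for the estimate and a line for its 95% interval from limma, and dotted lines at 2-fold in each direction. Most intervals cross 0, 56 stay between the dotted lines, and the estimates run from -0.996 for Slfn1 to 0.65 for Dhx58.

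Against WT RT, the libraries labelled GCN2 KO Cold gave 70 members lower and 2 higher of 96, where 7.58% of 16560 genes were called lower and 3.01% higher (10.6% in either direction). Genotype and temperature both differ here, and the WT RT libraries are those of the first comparison. The median log2 fold change was -1.79. For Isg15 it was -2.64 (SE 0.28), for Ifit3 -3.91 (SE 0.35), for Irf7 -2.53 (SE 0.30) and for Usp18 -3.24 (SE 0.29), beside -2.73, -3.74, -2.51 and -2.93 for WT Cold. The genes higher were Ifitm10 (2.06, SE 0.31) and Ifi27l2a (1.17, SE 0.17), and the latter was not called under CPM scaling, in 1 fit of all 9 libraries or without GCN2 KO Cold library C. The same overlap was not counted over all genes and the WT RT libraries are shared, so nothing is read from the overlap of members. All 66 members called lower in WT Cold were called lower here, with 4 more, Irf9, Oas1g, Ifi207 and Slfn10-ps. Of these 4, Oas1g was not called with no mean-variance trend or without GCN2 KO Cold library B or C or WT RT library A or B. Slfn10-ps was not called without GCN2 KO Cold library A or C or WT RT library B, and Ifi207 without GCN2 KO Cold library A or WT RT library B.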

How the data were processed

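RNA of brown adipose tissue from 9 mice was sequenced as poly(A)-enriched libraries. Per the labels, the submitters' processing notes name Trimmomatic 0.36, STAR 2.5.2b, featureCounts of Subread 1.5.2 and the GRCm39 genome, and the strand setting is not given in the sources used here. The authors deposited 3 tables of 6 libraries each, 1 for each comparison, whose values are a normalized signal, the read count of each gene divided by a DESeq2 size factor. Only reads with a unique place were counted, so near-identical copies (Ifit3 and Ifit3b, the Oas1, Gbp, Ifi200, Slfn, Phf11, Trim30 and Ifi27l2 genes) are uncertain. Whole read counts were recovered from the deposited signal for 100.0% of values, within 0.01 of a whole number. In each of the 3 tables, no listed gene had fewer than 61 reads over the 6 libraries. The tables also hold the authors' own fold changes and p-values, which were not used, and 0 columns belonged to other samples. Tables were normalized separately, and tests stayed within a table, except for an alternative that fitted all 9 libraries on CPM.

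Log2(normalized count + 1) was fitted per table with limma 3.58.1 with a mean-variance trend in R 4.3.3, and p-values were adjusted over all genes of the table (Benjamini-Hochberg). DESeq2 1.42.0 and edgeR 4.0.16 on the recovered reads were alternatives, along with other pseudocounts, scaling, filters on low counts and leaving out each library. CPM are recovered reads scaled to the same total over listed genes, and RPKM divide these by exon length in GENCODE M21, which matched 16900 of 16937 gene IDs. Because 1 is added to each normalized count, the limma fold changes understate changes of genes with few reads. Promoters came from RefSeq for GRCm38.p6, a different build from that of the counts, so they were joined by symbol alone. Motifs were searched on both strands, and overlapping matches were counted.

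The members and lists were chosen with earlier results of these data known. Values are given in full for the genes named singly in the rule and, for each of the Ifi200, Ifit, Ifitm, Oas, Mx, Irf, Gbp, immunity-related GTPase, Phf11, Slfn, Trim30 and Isg families, for up to 3 further genes with the largest difference between WT Cold and WT RT among those whose normalized counts averaged 50 or more. Irf4, Ifi204, Ifi205, Ifi44, Slfn5, Ifi30, Ifit1bl1, Irf1, the Ifi27 genes, Ifitm10, Irf2bp2, Slfn2 and the genes named from lists were chosen after their values were seen. A title that names both genotypes was read by its genotype label, GCN2 KO. Labels describe replicates as separate mice, but the columns name no mouse. Members not named in the text are given by counts, and 1 member that is in all totals is left out of the figures that name genes.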

Additional observations from a re-analysis of the deposited data

How the results depend on the processing

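No paired analysis was possible because the columns carry no replicate numbers. Under other pseudocounts, CPM scaling, stricter filters, 1 fit of all 9 libraries, DESeq2 and edgeR, the counts of members called stayed within 1.5 times the value reported in both comparisons against WT RT. Between genotypes the count was 0 in each, while the median log2 fold change moved from -0.17 to -0.29 under CPM scaling and in 1 fit of all 9 libraries. Leaving out 1 library at a time gave 59 to 69 members called in WT Cold against WT RT (median log2 fold change -1.87 to -1.52), 65 to 73 in GCN2 KO Cold against WT RT (-2.03 to -1.63) and 0 in GCN2 KO Cold against WT Cold (-0.25 to -0.08). The count of 59 came without WT RT library B, when 58 of the 67 calls were kept and Ifi35, Irf5, Iigp1, Ifitm6, Ifit1bl2, Ifi204, Trim30c, Ifi203-ps and Gbp6 were lost. Gbp6 was also lost with DESeq2 and edgeR. In GCN2 KO Cold against WT RT, 65 of 72 calls were kept without WT RT library B, and Ifi35, Iigp1, Oas1g, Ifit1bl2, Slfn10-ps, Ifi207 and Ifi47 were lost. The log2 fold change of Irf4 in WT Cold against WT RT ran from -1.11 without WT Cold library C, the reverse of its direction with all libraries, to 0.76 without WT Cold library A. Leaving out library C of both cold groups, chosen after seeing the data, gave 0 calls and a median of -0.05 between genotypes. With a longer ISRE motif, which adds a C at the end, 22 members held it in place of 36, and the share of all genes went from 3.46 to 0.796%. For 33 of 90 members the comparison between genotypes did not bound the difference within 2-fold. Temperature and the library code prefix cannot be told apart.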
